A study of Mus musculus with 30 samples.

Results

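Mouse embryonic fibroblasts (MEFs) after 12 days in a chemical mixture were compared with untreated MEFs, as the first of the time points on the way to chemically induced pluripotent stem cells (CiPSC). The comparison used 2 of the 30 array samples of the study, day 12 and the fibroblasts called MEF3, both chosen by their labels and both in set 5, the set of samples that the authors normalized together for the time course. MEF3 was MEFs line 3, without chemical treatment. Day 12 carried the label VC6TF and cell line "D12 treatment fibroblast", with MEFs as its source. Both were of embryonic stage. The labels name neither a strain nor the MEF line that was treated. The titles of MEF3 and day 12 give no genotype, while the MEF of set 3, used below, are titled wildtype. Set 5 held 6 samples in all, and the other 4 were days 20 and 32 of treatment (VC6TF+Z), a CiPSC line called control (VC6TF+Z) and the untreated embryonic stem cells (ESC) of line R1 called ESC5. The fibroblasts were grown in medium with fetal bovine serum, and the ESC and CiPSC on feeder layers of MEFs whose division had been blocked. RNA was labelled with Cy5 and read on 1-colour oligonucleotide arrays. Each value is a single intensity per probe and sample, which the design text describes as resting on 2 replicates, so no spread between replicates, no standard error and no test was possible, and every difference below is a description of 1 sample against 1.

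In VC6TF, the letters stand for valproic acid, an inhibitor of histone deacetylases, an inhibitor of the kinase GSK3, an inhibitor of the TGF-beta receptor, tranylcypromine, which inhibits the histone demethylase LSD1 (Kdm1a) and monoamine oxidases, and forskolin, which activates adenylyl cyclase. Z is DZNep, which lowers S-adenosylmethionine dependent methylation and was added after day 12. Inhibition of GSK3 spares beta-catenin from breakdown and so activates the targets of Wnt signalling, forskolin raises cAMP and with it the CREB targets, and TGF-beta signalling in fibroblasts drives the contractile and matrix genes of the myofibroblast. MEFs divide quickly in serum, lay down collagens and proteoglycans, and can hold a few macrophages and contractile cells.

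Intensities are linear with no value above 65497 in set 5, and a value under 16 was set to 16 before log2 was taken. A difference is log2 of day 12 minus log2 of MEF3, and a gene is called higher or lower at 2-fold or more, a difference of at least 1 in size. Intensities of different probes were not set against each other, since a probe's brightness depends on its sequence. The summed intensities of cell type markers below add different probes, so the brightest probes weigh most in them.

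MEF3 stood apart, and this touches every result. Across the 19062 genes of set 5, log2 intensities of day 12 correlated with MEF3 at 0.833, with day 20 at 0.984, with day 32 at 0.947 and with ESC5 at 0.800. With no floor at 16, the coefficient was 0.800 with MEF3 and 0.814 with ESC5. The MEF of 3 other sets were MEF1 (set 1), WT MEF (set 3, wildtype by its title) and MEF2 (set 4). They correlated among themselves at 0.924 to 0.941 over the 10683 genes measured in all 4 sets. With those 3, day 12 correlated at 0.769 to 0.827 and MEF3 at only 0.583 to 0.709. The genes are not independent, and the sets were normalized separately, so these coefficients describe the samples and carry no test. At 70 genes MEF3 alone of set 5 read 100 or more while the other 5 samples were all under 16, and at 120 genes MEF3 alone was under 16 while the others all read 100 or more. For no other sample of set 5 did either count pass 3. The difference was therefore also taken against MEF1, WT MEF and MEF2, each through the R1 ESC of its own set: day 12 minus ESC5, less the mean of MEF minus ESC in at least 2 of the sets 1, 3 and 4. This is called the other reference. Where 2 differences stand together in brackets after a gene's levels, the first is against MEF3 and the second with the other reference. Higher, lower or within 2-fold, with no reference named, is against MEF3. Among genes given with both, ESC5 read Cldn6, Mok, Nr4a1, Slc16a3 and Srf 8-fold or more below every other ESC measured and Cd14, Dcn, Isg15, Lox, Myc, Myh11, Myl1, Nr4a2, Postn, Prelp and Tgfb3 8-fold or more above, and their value with the other reference includes that reading. Of 41 genes named here with several probes, 24 had a probe with another call against MEF3, and 5 of these had probes past 2-fold in opposite directions. The other reference carries the reading of ESC5, which was under 100 at 144 of the 4027 genes that the ESC of all 3 other sets read at 500 or more, among them Sox2 (34.2 in ESC5).

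Of the 19062 genes, 4462 (23.4%) were higher on day 12 by 2-fold or more and 4791 (25.1%) lower. By 4-fold or more, 2420 (12.7%) were higher and 1203 (6.31%) lower. The median difference over all genes was 0, and over the 11081 genes read at 64 or more in both samples it was -0.25. Centred on the latter, 5135 genes were higher and 3689 lower. In 618 of the genes called higher, MEF3 read under 16, and in 312 of those called lower, day 12 did. With the other reference, which 13865 genes had, 2838 (20.47%) were higher and 2642 (19.06%) lower. The counts of every list below are to be read beside these shares, 23.4% and 25.1% against MEF3 and 20.47% and 19.06% with the other reference. Of the 3443 genes higher than MEF3 and measured there, 842 (24.5%) were also higher with the other reference and 753 (21.9%) lower. Of the 4045 genes lower than MEF3, 734 (18.1%) were also lower and 905 (22.4%) higher. These shares lie close to those of all genes. A gene below is described as lower or higher under both references only where both differences pass 2-fold. Of the 13865 genes, 842 were higher in this way and 734 lower. Both differences hold the same day 12 value, so they are not independent.

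**Figure D1:**
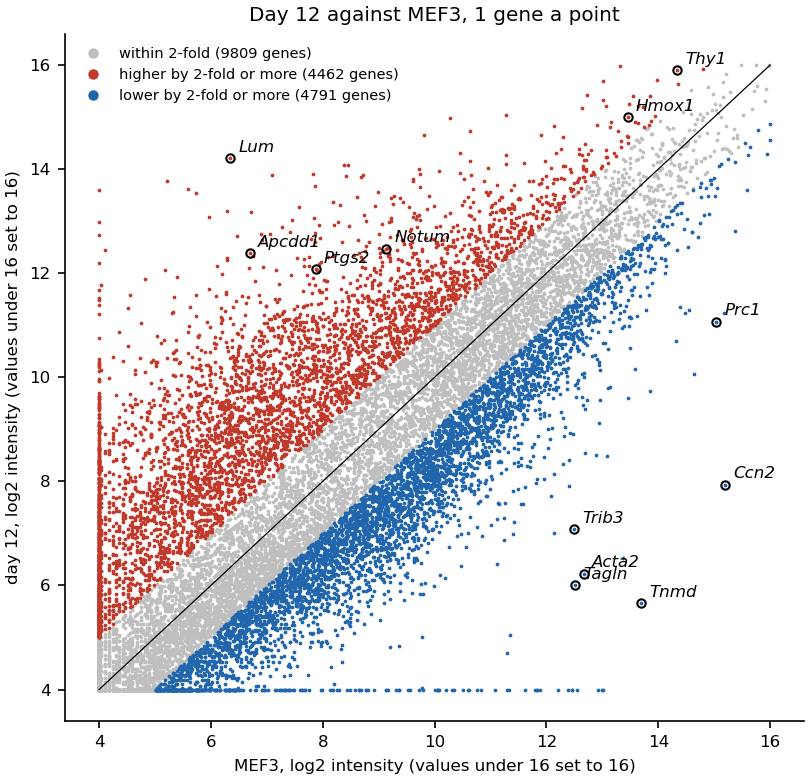
Intensity of each of 19062 genes in MEF3 (horizontal) and on day 12 (vertical), both as log2 with values under 16 set to 16. Genes higher by 2-fold or more are red (4462), genes lower are blue (4791) and the rest grey (9809). Named genes are circled; Acta2, Tagln, Ccn2 and Tnmd lie far below the diagonal and Lum, Apcdd1 and Ptgs2 far above it.

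Several contractile genes of smooth muscle and myofibroblasts were low on day 12. Acta2, the smooth muscle actin of stress fibres, read 6495 in MEF3 and 74.9 on day 12, a difference of -6.44. Tagln, which binds and bundles actin, read 5806 in MEF3 and 64 on day 12 (-6.50). Both stayed far below MEF3 later, Acta2 at 127 on day 20 and 259.8 on day 32 and Tagln at 98.8 on day 20 and 146 on day 32. WT MEF and MEF2 read both genes high. Acta2 was at 3925 in WT MEF and 7978 in MEF2 and Tagln at 1817 in WT MEF and 1316 in MEF2, and with the other reference the differences were -6.82 and -4.21. Lmod1, a leiomodin that nucleates actin filaments, read 219 in MEF3 and 34.1 on day 12 (-2.68), and Smtn, smoothelin, read 12588 in MEF3 and 2308 on day 12 (-2.45). Myh11, the smooth muscle myosin heavy chain, read 2123 in MEF3 and 566 on day 12 (-1.91). Myl9, a regulatory myosin light chain, read 13929.5 in MEF3 and 4245 on day 12 (-1.71), and Actn1, an actin crosslinker, read 5216 in MEF3 and 1755 on day 12 (-1.57). These 5 genes were lower with the other reference too, at -2.19, -1.05, -3.89, -1.32 and -2.78. Of the list's 19 genes measured, 3 were higher and 9 lower, with a median of -0.56 against 0 for all genes and with 23.4% of all genes higher and 25.1% lower, and with the other reference 1 of 18 was higher and 10 lower (median -1.06). The list did not move as a whole. Flna, filamin A, and Cnn2, a calponin, were within 2-fold, at 34003 in MEF3 and 24269 on day 12 and at 12631 in MEF3 and 8564 on day 12. Srf, the serum response factor that drives many of these genes, was higher at 2414 in MEF3 and 9449 on day 12 (1.97, though a second probe of it differed by only 0.13). Its value with the other reference, 6.97, rests on a low reading in ESC5 (55.9). Cald1, caldesmon, and Tpm4, a tropomyosin, were higher than MEF3 by 1.82 and 1.52 but not with the other reference (-0.85 and -0.75). The summed intensity of 5 smooth muscle markers (Acta2, Tagln, Cnn1, Myh11 and Des) was 15470 in MEF3 and 1191 on day 12, and Cnn1 was under 16 in both. In bulk RNA, fewer cells of a type and less RNA per cell cannot be told apart.

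Serum response factor binds the CArG box, and 4 of the 16 genes of this list that the RefSeq promoter table holds had a match to it in the window from 250 bases before to 50 after a start site, searched on both strands. Of all 27025 genes with a promoter there, 1.81% had a match, and of all 32851 promoters 1.63%. Myl9 and Srf are shown because they hold the same motif and differ in direction, with the matches in capitals (GRCm38.p6, 5′ to 3′ on the strand of the gene). Myl9 lies at chr2:156775214-156775513 on the plus strand with 1 match, and Srf at chr17:46556113-46556412 on the minus strand with 2.
Myl9: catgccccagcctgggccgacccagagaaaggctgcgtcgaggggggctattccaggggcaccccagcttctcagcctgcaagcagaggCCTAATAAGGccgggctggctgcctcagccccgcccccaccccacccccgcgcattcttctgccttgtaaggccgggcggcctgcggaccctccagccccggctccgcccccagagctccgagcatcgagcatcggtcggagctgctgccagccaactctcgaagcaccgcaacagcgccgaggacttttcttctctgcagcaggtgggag
Srf: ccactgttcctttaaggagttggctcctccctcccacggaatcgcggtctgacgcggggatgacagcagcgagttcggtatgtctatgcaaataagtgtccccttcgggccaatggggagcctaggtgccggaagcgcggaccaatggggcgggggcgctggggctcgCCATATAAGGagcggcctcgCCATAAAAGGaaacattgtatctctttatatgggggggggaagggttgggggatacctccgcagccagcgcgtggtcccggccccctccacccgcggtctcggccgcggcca
The further holders were Cnn2 and Vcl (vinculin), at differences of -0.56 and 0.54 (-1.06 and -2.31 with the other reference). Holders thus had differences from MEF3 from -1.71 to 1.97.

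Genes that TGF-beta induces through SMAD proteins split, with the connective tissue growth factor gene far lower. Ccn2, that growth factor, read 37473 in MEF3 and 245 on day 12, a difference of -7.26, and climbed to 968 on day 20 and 3801 on day 32. WT MEF and MEF2 read it at 7921 and 14923, and with the other reference the difference was -4.98 (SD among the other MEF 1.94). MEF2 was the highest sample of its set, but WT MEF ranked 3 of 4, at -0.10 from the median of the others. Lox, which crosslinks collagen, read 2550 in MEF3 and 468 on day 12 (-2.45; other reference -8.43). Itga11, a collagen receptor of fibroblasts, read 8462 in MEF3 and 1619.7 on day 12 (-2.39; other reference -4.73), though a second probe of it was higher by 1.45. Timp3, an inhibitor of matrix proteases, read 22592 in MEF3 and 7398 on day 12, and Ccn1, a matricellular protein related to Ccn2, read 3861 in MEF3 and 1709.8 on day 12. Bhlhe40, a transcription factor, and Tgfb1i1, a focal adhesion protein, were lower (-1.73 and -1.63 against MEF3), as was Skil, a brake on SMAD signalling (-1.03). All 5 were lower with the other reference as well (-2.54, -1.80, -1.77, -1.05 and -1.60). Tgfbi, a secreted matrix protein named for its induction by TGF-beta, went the other way, 411 in MEF3 and 14751 on day 12 (5.17), but the other MEF read it high too, at 7581 in WT MEF and 18746 in MEF2, and the other reference gave -1.32. Postn, periostin, showed the same turn, from 1.72 to -5.48. Pmepa1, a further target that limits the pathway, read 47.3 in MEF3 and 692 on day 12 and 2921 in MEF2. Thbs1 and Tgfb3, a thrombospondin and a ligand, were within 2-fold, at 5086 in MEF3 and 4843 on day 12 and at 3954 in MEF3 and 4205 on day 12 (other reference -7.55). In all, of 21 genes measured, 6 were higher and 10 lower (median -0.93), and with the other reference 2 of 18 were higher and 12 lower (median -1.48). Under both references 8 of the 18 were lower and 0 higher, against 734 and 842 of the 13865 genes with the other reference.

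Among Wnt pathway genes, Apcdd1, Notum, Nkd1 and Kremen1 were higher on day 12 under both references, and Lgr5, Ccn4, Ccn5 and Sfrp2 lower. Apcdd1, a membrane inhibitor of Wnt, read 104 in MEF3 and 5372 on day 12, 51.7 times as bright. WT MEF and MEF2 read it at 90.9 and 389. The difference was 5.69 against MEF3 and 4.36 with the other reference. Notum, an enzyme that inactivates Wnt ligands, read 562 in MEF3 and 5679.5 on day 12, with 63.1 to 283 in the other MEF (3.34 and 5.65), and was lower again later, at 3741 on day 20 and 1150.2 on day 32. Nkd1, a feedback inhibitor inside the cell, read 203 in MEF3 and 889 on day 12 (2.13 and 2.30), although MEF2 read it at 1116. Kremen1, a receptor for the Dkk inhibitors, was higher by 1.25 and 2.47. Wif1, a secreted inhibitor, read 157 in MEF3 and 766 on day 12. Some usual readouts of the pathway were within 2-fold of MEF3 but higher with the other reference. Axin2, a direct beta-catenin target, read 140 in MEF3 and 164 on day 12 (0.23 and 2.16) and reached 418 on day 32. Lef1, a factor that beta-catenin binds, was within 2-fold at the floor, under 16 in MEF3 and 16.3 on day 12. It had no value with the other reference. Ccnd1, cyclin D1, and Dkk2, a secreted modulator, read 19255 in MEF3 and 17701 on day 12 (-0.12 and 1.47) and 12102 in MEF3 and 11939.8 on day 12 (-0.02 and 1.37). Dkk3 and Sfrp1, secreted inhibitors, turned from 1.28 to -3.05 and from 1.71 to -1.41. Lgr5, the R-spondin receptor, read 3345 in MEF3 and 338 on day 12 (-3.31), and 6945 to 11972 in the other MEF (-4.41). Ccn4, a matricellular target of Wnt also known as Wisp1, read 7868 in MEF3 and 1203 on day 12 (-2.71 and -2.86). Its relative Ccn5 and the secreted Sfrp2 were lower under both references too, at -1.41 and -1.83 against MEF3. Dkk1 had the largest difference of all genes, 9.59, but this rests on MEF3, which read under 16 where every other sample of set 5 read 9213 or more, the ESC included. Of 24 genes measured, 10 were higher and 4 lower (median 0.08), and with the other reference 9 of 17 were higher and 6 lower (median 1.37). Under both, 4 of the 17 were higher and 4 lower, against 842 and 734 of the 13865 genes with the other reference. A TCF/LEF match, CTTTGAT or CTTTGAA on either strand, was present in 2 of the list's 12 genes with a promoter in the table, Sp5 and Dkk1, against 9.88% of all 27025 genes and 8.65% of all promoters there.

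Genes that cAMP induces through CREB were higher in part. Gem, a small GTPase, read 31.2 in MEF3 and 1292 on day 12 (5.37), with 627 in MEF2. Ptgs2, the inducible cyclooxygenase, read 234 in MEF3 and 4325 on day 12 (4.21) and went on to 4785 on day 20 and 7027 on day 32. It was at 189 in WT MEF and 493 in MEF2, and the other reference gave 4.29. Bdnf, a neurotrophin with CREB dependent promoters, read 46.2 in MEF3 and 276 on day 12 (2.58 and 1.05). Pde10a, a cyclic nucleotide phosphodiesterase, read 66.2 in MEF3 and 237 on day 12 (1.84 and 2.83). Id1, an inhibitor of bHLH factors, read 12224 in MEF3 and 30693 on day 12 (1.33 and 5.78). Id1 and Id3 belong to the list of BMP pathway genes as well, so they are not particular to cAMP. Nr4a2, an orphan nuclear receptor, read 1259 in MEF3 and 7210.3 on day 12 (2.52), but ESC5 read it at 3995, so that the other reference gave -0.08. Levels of Nr4a2 in the other MEF were 61.1 to 314. Nr4a1, its relative, read under 16 in MEF3 and 34.1 on day 12 (other reference -1.45), whereas MEF1 and WT MEF read it at 2782 and 2204 in their own sets. Some genes of the list were lower than MEF3 without being lower with the other reference. Sst, somatostatin, was at 206 in MEF3 and under 16 on day 12 (-3.69 and -0.37), and Pde4b, which breaks down cAMP, read 959 in MEF3 and 294 on day 12 (-1.71 and 1.31). A second probe of Pde4b differed from MEF3 by only 0.16. Id3, a relative of Id1, and Pde4d, a further phosphodiesterase, were within 2-fold, at 31720.5 in MEF3 and 36085 on day 12 (other reference 3.65) and at 3539 in MEF3 and 2433 on day 12, though a further probe of Pde4d was higher by 3.16. Of 27 genes measured, 12 were higher and 6 lower (median 0.23), against 23.4% and 25.1% of all genes. The other reference gave 7 of 19 higher and 3 lower (median 0.68), against 20.47% and 19.06% of all genes. Dusp1, a phosphatase of MAP kinases induced within minutes by many stimuli, read 393 in MEF3 and 1572 on day 12 (2.00, and 0.81 with the other reference). The full CRE, TGACGTCA on either strand, was found in 2 of the list's 21 genes with a promoter in the table, and in 2.03% of all genes and 1.79% of all promoters there. These were Dusp1, higher than MEF3, and Sst, which MEF3 alone of set 5 read (206 against under 16 in the other samples, ESC5 included), and the windows of both holders are printed with the CRE in capitals. Dusp1 lies at chr17:26508423-26508722 and Sst at chr16:23890795-23891094, both on the minus strand of GRCm38.p6.
Dusp1: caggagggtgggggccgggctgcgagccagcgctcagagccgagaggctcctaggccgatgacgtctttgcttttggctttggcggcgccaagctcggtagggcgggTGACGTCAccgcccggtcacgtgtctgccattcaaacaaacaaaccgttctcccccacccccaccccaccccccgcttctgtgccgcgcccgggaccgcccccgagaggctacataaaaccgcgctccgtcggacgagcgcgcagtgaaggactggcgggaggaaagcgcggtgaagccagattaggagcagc
Sst: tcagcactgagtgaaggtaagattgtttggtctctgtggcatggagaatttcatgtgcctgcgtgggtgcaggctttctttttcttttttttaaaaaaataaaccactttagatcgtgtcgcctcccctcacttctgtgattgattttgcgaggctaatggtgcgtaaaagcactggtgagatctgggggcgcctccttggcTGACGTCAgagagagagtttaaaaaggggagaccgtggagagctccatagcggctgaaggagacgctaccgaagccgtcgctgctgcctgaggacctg
The CRE of Dusp1 starts 143 bases before the start site and that of Sst 48 bases before it.

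**Figure D2:**
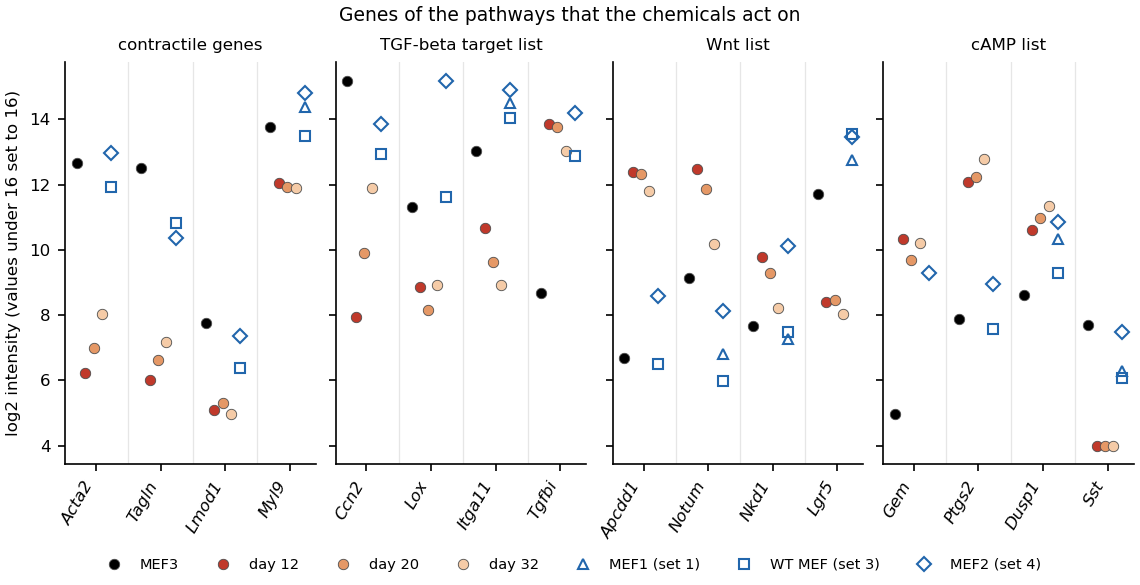
Log2 intensity (values under 16 set to 16) of 16 genes in MEF3 (black), on days 12, 20 and 32 (red to pale orange) and, as open blue symbols, in MEF1, WT MEF and MEF2, whose sets were normalized separately. Acta2, Tagln, Ccn2 and Lgr5 on day 12 lie below MEF3 and below every other MEF shown; Apcdd1, Notum and Ptgs2 lie above them, and Tgfbi lies above MEF3 and WT MEF and below MEF2.

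Genes that deacetylase inhibitors commonly raise were higher than MEF3 more often than lower, with the largest difference from MEF3 at Mt2. Mt2, a metallothionein that binds zinc and copper, read 1079 in MEF3 and 15952 on day 12 (3.89 and 1.13). Every other sample of set 5 read Mt2 at 14484 or more, the untreated ESC5 at 16519, so MEF3 was the sample that stood apart. H2bc4, a histone H2B gene, read 136 in MEF3 and 1965 on day 12 (3.85), and WT MEF and MEF2 also read it high, at 1890.4 and 3855 (-0.24). Clu, the secreted chaperone clusterin, read 664 in MEF3 and 3476 on day 12 (2.39 and 2.18) and reached 16556 on day 20 and 41119 on day 32. The other MEF differed widely at Clu (SD 3.20), with 558 in MEF1 and 479 in WT MEF but 8907 in MEF2. Stmn4 and Tubb3, a stathmin and a tubulin of neurons, were higher by 1.22 and 1.33 and by 2.58 and 1.06 with the other reference. Gsn, gelsolin, an actin severing protein that such inhibitors raise in other cells, was lower, at 2889 in MEF3 and 313 on day 12 (-3.21 and -8.62). Cdkn1a, the cell cycle inhibitor p21, was within 2-fold, at 32271 in MEF3 and 44503 on day 12, as was the linker histone H1f2 at 3747 in MEF3 and 3492 on day 12 (other reference -1.69). Of 13 genes measured, 7 were higher and 1 lower (median 1.12), and with the other reference 4 of 12 were higher and 3 lower (median 0.51). H1f0, the linker histone of resting cells, had no probe among the genes of set 5.

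Among the enzymes that add or remove acetyl and methyl groups, Kdm1a, the demethylase that tranylcypromine inhibits, read 3309 in MEF3 and 3391 on day 12 (0.04 and -1.05), lower with the other reference and within 2-fold of MEF3. Hdac8, a deacetylase, read 44.2 in MEF3 and 468 on day 12 (3.40 and 2.47), Kdm4c, a demethylase of histone H3, 199 in MEF3 and 1931 on day 12 (3.28 and 3.23), and Tet2, which oxidises methylated cytosine, 48.8 in MEF3 and 659 on day 12 (3.76 and 1.82). Dnmt3b, a methyltransferase for new DNA methylation, read 19 in MEF3 and 191 on day 12 (3.33), while Hdac7, a class II deacetylase, was lower, 7470.2 in MEF3 and 1370.5 on day 12 (-2.45 and -2.73). Of 34 genes measured, 13 were higher and 4 lower, and with the other reference 13 of 33 were higher and 10 lower (median 0.09). Hdac4 was within 2-fold at 4180 in MEF3 and 3904 on day 12 (other reference 1.42). Ezh2 and Uhrf1, which maintain repressive marks in dividing cells, were far above day 12 in the pluripotent samples of set 5 (the CiPSC control line and ESC5), at 5561 or more against 228 for Ezh2 and 8277 or more against 214 for Uhrf1. Against MEF3 they differed by 1.47 and 0.32, and with the other reference by -2.48 and -2.89.

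Most genes of mitosis were lower on day 12, against MEF3 and with the other reference alike. Prc1, which bundles the spindle midzone, read 33619 in MEF3 and 2149 on day 12 (-3.97), and Tpx2, a spindle assembly factor, read 2978 in MEF3 and 189 on day 12 (-3.98). Birc5, survivin, a subunit of the chromosomal passenger complex, read 5469 in MEF3 and 490.5 on day 12 (-3.48). Against the other MEF they stood at -1.55, -1.76 and -1.61. Cenpa, the histone of the centromere, read 22789 in MEF3 and 2421 on day 12 and Aurka, a mitotic kinase, 3500.2 in MEF3 and 419 on day 12. Plk1, a further mitotic kinase, read 2479 in MEF3 and 301 on day 12, and Mki67, the proliferation antigen Ki-67, 752 in MEF3 and 255 on day 12. The last 4 differed by -3.23, -3.06, -3.04 and -1.56, and by -2.61, -1.96, -2.37 and -2.98 with the other reference. Of 31 genes measured, 1 was higher and 22 lower, with a median of -2.08. Against the other MEF, 3 of 28 were higher and 22 lower (median -1.93). Under both, 19 genes were lower, against 734 of the 13865 genes with the other reference. Some genes kept this under 1 reference or neither. Cdca8, a passenger complex subunit, was lower than MEF3 (-3.96) and not with the other reference (-0.15), and Ube2c, a ubiquitin enzyme of mitotic exit, turned from -2.66 to 1.19. Aurkb and Kif2c, a kinase and a kinesin of the centromere, were within 2-fold of MEF3, at 655 in MEF3 and 356 on day 12 (other reference -1.92) and at 276 in MEF3 and 165 on day 12 (other reference -1.05). Cdk1, the kinase that starts mitosis, was the 1 gene higher, at low readings (19.8 in MEF3 and 82.3 on day 12, 2.05 and 2.44). The median of the list was 752 in MEF3, 255 on day 12, 460.3 on day 20, 750.2 on day 32, 3217 in the CiPSC control line and 2178 in ESC5. Day 12 was the lowest of the 6 samples for 25 of the 31 genes.

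The medians of the DNA replication genes were also lowest on day 12 (531 in MEF3 and 212 on day 12), with 17 of 31 lowest on day 12. Mcm5, a subunit of the replicative helicase, read 1327 in MEF3 and 212 on day 12 (-2.64 and -2.79), and Mcm10, an initiation factor, 6604 in MEF3 and 372 on day 12 (-4.15 and -1.33). Gins1, a further helicase subunit, was lower than MEF3 at -2.70 and stood at -0.48 with the other reference. Mcm7, of the same helicase as Mcm5, was higher, at 297 in MEF3 and 2015 on day 12 (2.76 and 2.24). E2f1, which switches such genes on, and Mcm4 were within 2-fold, at 1384 in MEF3 and 1459 on day 12 and at 1486 in MEF3 and 1177 on day 12 (other reference -1.49). Of 31 genes measured, 6 were higher and 14 lower (median -0.89), and with the other reference 7 of 31 were higher and 16 lower (median -1.06).

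**Figure D3:**
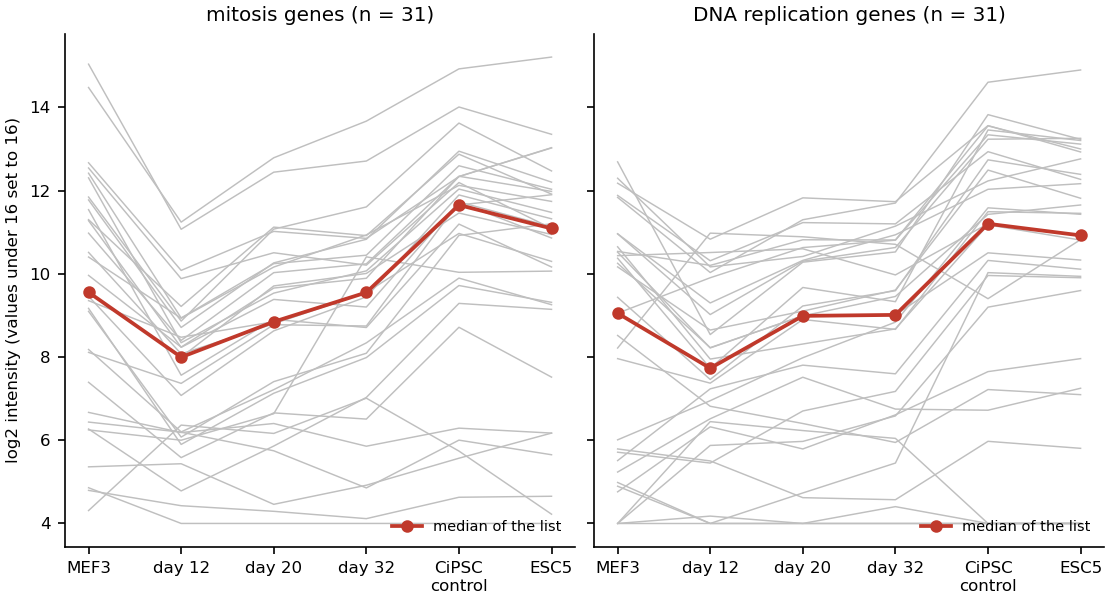
Log2 intensity (values under 16 set to 16) of 31 mitosis genes (left) and 31 DNA replication genes (right) in the 6 samples of set 5. Each grey line is a gene and the red line joins the medians of the list, which are lowest on day 12 and highest in the CiPSC control line.

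Targets of p53 and inhibitors of the cell cycle were higher than MEF3 more often than lower, and about as often higher as lower with the other reference. Pmaip1, the BH3-only protein Noxa, read 78.2 in MEF3 and 5036 on day 12 (6.01), with 59.1 to 474 in the other MEF (3.88). Sesn2, a stress induced regulator of mTORC1, was under 16 in MEF3 and 340.2 on day 12 (4.41 and 1.45), and Perp, a membrane protein of apoptosis and desmosomes, read 348 in MEF3 and 3010.2 on day 12 (3.11 and 2.50). MEF3 alone missed Sesn2, which read 137 or more in every other sample of set 5. Cdkn2b, the inhibitor p15, read 581 in MEF3 and 8094 on day 12 (3.80), yet MEF1 and MEF2 read it at 8746 and 8606 (-0.51). Glb1, the lysosomal beta-galactosidase used as a stain of senescent cells, and Trp53inp1 showed the same loss of the difference, from 4.23 to -0.45 and from 3.98 to 0.06. Mdm2, which degrades p53, was within 2-fold of MEF3 at 7817 in MEF3 and 12664 on day 12 and higher with the other reference (0.70 and 2.55), and the other MEF read it at 1514 to 3797. Cdkn2a, the locus of p16 and p19Arf, was under 16 in both samples by 1 probe and higher by 4.35 by another. Of 23 genes measured, 11 were higher and 3 lower (median 0.70), and with the other reference 5 of 21 were higher and 6 lower (median -0.08).

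Most fibroblast markers were read on day 12. The summed intensity of 10 fibroblast markers was 101348 in MEF3, 224373 on day 12 and 18799.6 in ESC5, with 6 of them higher on day 12 than in MEF3 and 1 lower, Pdgfrb, a PDGF receptor, at 3803 in MEF3 and under 16 on day 12. Thy1, a surface antigen of fibroblasts, read 20738 in MEF3 and 61410.3 on day 12, and 14331 to 42864 in the other MEF (1.57 and -0.76). Dcn, decorin, read 8278 in MEF3 and 53171 on day 12 (2.68 and -3.19) and Prrx1, a factor of limb and trunk mesenchyme, 8853 in MEF3 and 10714 on day 12 (0.28 and -1.01), with a second probe at -1.51. Dcn thus turned with the other reference. MEF2 read it at 62827, and ESC5 at 1309 where the other ESC read 103 or less. In the pluripotent samples of set 5 no value of these 3 genes passed 1309. Collagen and matrix genes divided. Col1a1, the main chain of type I collagen, read under 16 in MEF3 and 714 on day 12 (5.48), but MEF2 read this probe at only 76.2, and Col1a2, its partner, was within 2-fold at 3196 in MEF3 and 5255 on day 12 (other reference -5.76). Col3a1, type III collagen, read 258 in MEF3 and 1449 on day 12 and Col7a1, of anchoring fibrils, 228 in MEF3 and 1009 on day 12 (2.15 and 2.70). Col11a1, Col5a1, Col8a1 and Col8a2, chains that regulate fibrils or form networks, were lower, at -2.36, -2.10, -2.14 and -1.24, and lower with the other reference too. Col6a1 and Col4a2, of beaded filaments and basement membranes, were within 2-fold at 23989.5 in MEF3 and 39466 on day 12 and at 36085 in MEF3 and 21493 on day 12. Of 22 genes measured, 5 were higher and 7 lower (median -0.14), against 23.4% and 25.1% of all genes. The other reference gave 3 of 20 higher and 11 lower (median -1.37), against 20.47% and 19.06% of all genes.

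Lum, the proteoglycan lumican, read 81.2 in MEF3 and 18915 on day 12 (7.86), yet MEF2 read it at 38002. Thbs2, a thrombospondin, read 78.2 in MEF3 and 4854 on day 12, with 10221 in MEF2, but a second probe of it was lower at -2.52. MEF2 thus read both genes above day 12. Eln, elastin, read 23829 in MEF3 and 2497 on day 12 and fell further to 1137 on day 20 and 332 on day 32 (-3.25 and -3.23). Mfap5 and Mfap4, glycoproteins of microfibrils, were lower, at -3.35 and -2.72 against MEF3 and -2.72 and -8.72 with the other reference, as was Prelp, a proteoglycan of basement membranes (-2.06 and -7.21). Lamb1, a laminin chain, was under 16 in all 5 samples of set 5 other than MEF3 (1546), the ESC included. Of 27 genes measured, 6 were higher and 11 lower (median -0.53), and with the other reference 1 of 20 was higher and 15 lower (median -2.48). Tnc and Nid1, tenascin and nidogen, were within 2-fold at 29948 in MEF3 and 34473 on day 12 and at 9723 in MEF3 and 12076 on day 12.

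Matrix proteases and their inhibitors were higher than MEF3 in 12 of 20 cases and lower in 2 (median 1.16). Mmp3, stromelysin 1, read 81.2 in MEF3 and 2246 on day 12 (4.79), with 77.6 to 764 in the other MEF (2.31), and Mmp13, a collagenase, 2739 in MEF3 and 10039 on day 12 (1.87 and 3.95). Mmp19 and Ctsl, a metalloprotease and the lysosomal cathepsin L, read 222 in MEF3 and 6486 on day 12 and 898 in MEF3 and 25781 on day 12, but the other MEF read them high too (0.72 and 0.53 with the other reference). A second probe of Ctsl differed from MEF3 by only 0.21. Htra1, a serine protease, lost its difference of 4.73 in the same way (-0.16). Timp1 and Mmp11, a protease inhibitor and a protease, were within 2-fold at 36591 in MEF3 and 52294 on day 12 and at 2002 in MEF3 and 2029 on day 12. Against the other MEF, 3 of 17 were higher and 6 lower (median -0.38).

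Factors of mesenchymal identity moved both ways, and the Twist factors were higher. Twist1 and Twist2, bHLH factors of mesenchyme, read 119.8 in MEF3 and 6862 on day 12 (5.84) and 5006 in MEF3 and 25170.5 on day 12 (2.33), and both were higher with the other reference (1.15 and 4.07). Osr2 and Prrx2, of limb and craniofacial mesenchyme, read 594 in MEF3 and 8489.5 on day 12 and 375 in MEF3 and 5211 on day 12 (1.02 and 0.91 with the other reference). Snai2, the factor Slug, read 6036 in MEF3 and 14107 on day 12 (1.22 and 1.39), and Zeb1, a repressor of epithelial genes, was within 2-fold at 3356 in MEF3 and 6329 on day 12. Meox2 read 83.4 in MEF3 and 632 on day 12, with 5995 in MEF2. Foxc1, Foxd1 and Meox1, further mesodermal factors, were lower under both references, at -2.38, -1.83 and -2.20 against MEF3. Of 24 genes measured, 7 were higher and 6 lower, shares near the 23.4% and 25.1% of all genes. With the other reference 5 of 18 were higher and 5 lower (median 0.67), against 20.47% and 19.06% of all genes.

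Surface genes of fibroblasts changed singly. Pdgfra, the receptor of platelet-derived growth factor, read 1610.5 in MEF3 and 15179.5 on day 12 (3.24 and 0.31) with 17736 in MEF2, and was under 16 on day 20 alone of the treated samples. Pdgfrb, its partner, was under 16 on day 12 and in every other sample of set 5 but MEF3 (3803). Cspg4, a proteoglycan of pericytes, read 7811 in MEF3 and 554 on day 12 (-3.82 and -2.12), and Cdh11, the cadherin of mesenchyme, 222 in MEF3 and 2722 on day 12 (3.62 and 1.24). A second probe of Cspg4 was within 2-fold, at 1031 in MEF3 and 1349 on day 12 (0.39). Lgals1 and S100a6, a galectin and a calcium-binding protein, were near the top of the scale in both samples, at 64483 in MEF3 and 65471 on day 12 and at 64678 in MEF3 and 64678 on day 12. Of 18 genes measured, 4 were higher and 5 lower, shares near the 23.4% and 25.1% of all genes. The other reference gave 2 of 15 higher and 5 lower (median -0.38), against 20.47% and 19.06% of all genes.

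Hox genes, which hold positional identity, were higher in 3 of 28 cases and lower in 8 (median -0.69). The share lower was near the 25.1% of all genes, and the share higher was under their 23.4%. With the other reference 4 of 21 were higher and 10 lower (median -0.84), against 20.47% and 19.06% of all genes. Hoxa4 and Hoxb2 read 583 in MEF3 and 105 on day 12 and 5230.2 in MEF3 and 1097 on day 12, and both were lower under both references (-1.43 and -1.30). Hoxb4 and Hoxa3 were higher, from under 16 to 163 and 83.8, and Hoxb7 read 60.2 in MEF3 and 433 on day 12 (other reference 0.23), with 514 in MEF1. Hoxb4 was missed by MEF3 alone, since every other sample of set 5 read it at 163 or more. Hoxc6 and Hoxd8 were within 2-fold at 5746 in MEF3 and 3699 on day 12 (other reference -1.79) and at 1769.8 in MEF3 and 1629 on day 12 (other reference -1.76).

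Enzymes of glutathione and of oxidative stress defence, many of them targets of the factor NRF2, were higher than MEF3 in 18 of 23 cases and lower in 1, the highest median of the 35 lists (1.88). Hmox1, haem oxygenase 1, read 11199 in MEF3 and 32586 on day 12 (1.54), with 4532 to 12322 in the other MEF (2.22). Srxn1, sulfiredoxin, read 1098 in MEF3 and 3941 on day 12 (1.84 and 2.08), and Gclm, the modifier subunit of the enzyme that starts glutathione synthesis, 33.5 in MEF3 and 565 on day 12 (4.08 and 2.85). Gstp1 and Gsta4, glutathione transferases, were higher by 1.29 and 2.26, and by 2.26 and 2.82 with the other reference. Aldh3a1, an aldehyde dehydrogenase, read 196 in MEF3 and 1281 on day 12 (2.71 and 2.78). Slc7a11, which imports cystine for glutathione, was in the amino acid list and read 1016 in MEF3 and 9973 on day 12 (3.30), with 329 to 700.3 in the other MEF (4.25). Mgst1, a microsomal transferase with the largest difference of the list, read 36.5 in MEF3 and 4274 on day 12 (6.87), but MEF2 read it at 5111 (0.51). Nqo1, a quinone reductase, read 40 in MEF3 and 1415 on day 12 but 17.3 on day 20. Cat and Gsr, catalase and glutathione reductase, read under 16 in MEF3 and 304 on day 12 and 16.3 in MEF3 and 298 on day 12 (other reference 0.78). Gstm5 and Sod3 were within 2-fold at 4808 in MEF3 and 3168 on day 12 and at 2047 in MEF3 and 1511 on day 12 (other reference 1.99). With the other reference, 8 of 19 were higher and 2 lower (median 0.51). Under both, 7 were higher, against 842 of the 13865 genes with the other reference.

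Some genes of the amino acid response, which ATF4 and CHOP drive, were lower under both references. Trib3, a pseudokinase induced by ATF4, read 5738 in MEF3 and 136 on day 12 (-5.40), with 3706 to 9187 in the other MEF (-6.65). Chac1, which breaks down glutathione, read 7171 in MEF3 and 1357 on day 12 (-2.40 and -4.69), and Cth, which makes cysteine, 4510.2 in MEF3 and 129 on day 12 (-5.13 and -5.43). Ddit3, CHOP itself, read 3131 in MEF3 and 1258 on day 12 (-1.32 and -3.16), and Shmt2, the mitochondrial serine hydroxymethyltransferase, 14129.8 in MEF3 and 2513 on day 12 (-2.49 and -1.57). Chaperones of the endoplasmic reticulum went the other way: Hspa5 (BiP), Pdia4 and Creld2 were higher than MEF3 by 1.72, 1.57 and 2.58, and by 0.19, 1.38 and 1.94 with the other reference. Vldlr, a lipoprotein receptor, read 63.4 in MEF3 and 987 on day 12 (3.96). Xbp1 and Slc3a2, a factor of the unfolded protein response and an amino acid transporter subunit, were within 2-fold at 38041 in MEF3 and 29167 on day 12 and at 24660 in MEF3 and 16823 on day 12. Of 23 genes measured, 8 were higher and 5 lower, and with the other reference 7 of 22 were higher and 10 lower (median -0.22).

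Sterol synthesis turned with the reference. Fdft1, squalene synthase, read 58.6 in MEF3 and 939 on day 12 (4.00), but the other MEF read it at 3932 in MEF1, 1099 in WT MEF and 11682 in MEF2 (-1.51). A second, dim probe of Fdft1 differed from MEF3 by only 0.12. Hsd17b7, Pmvk and Ebp, further enzymes of the pathway, were higher than MEF3 by 3.57, 3.54 and 3.52 and stood at 0.60, -0.82 and -0.26 with the other reference. Insig1 and Srebf2, regulators of the pathway, were within 2-fold at 3377 in MEF3 and 3514 on day 12 (other reference -1.53) and at 4706 in MEF3 and 3140.5 on day 12. Of 19 genes measured, 9 were higher and 2 lower (median 0.48), and with the other reference 0 of 19 were higher and 9 lower (median -0.99).

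Part of the glycolysis genes were higher than MEF3, and fewer were higher with the other reference. Of 20 genes measured, 9 were higher and 2 lower (median 0.85), and with the other reference 3 of 20 were higher and 2 lower (median 0.09). Ldhb, a lactate dehydrogenase, read 923 in MEF3 and 6556 on day 12 (other reference 0.95), and Slc16a3, a lactate exporter, 161 in MEF3 and 757 on day 12 (2.24 and 6.10). The second value for Slc16a3 rests on ESC5, which read 68.4 where the other ESC read 1705 or more, and MEF1 read 1086. Pdk1, which restrains pyruvate oxidation, was higher by 2.48 (1.13), and Pfkm, a phosphofructokinase, by 2.45 (-0.01). Pkm and Tpi1, of the main pathway, were within 2-fold at 37836 in MEF3 and 58029.6 on day 12 and at 28589 in MEF3 and 32883 on day 12.

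Among lipid genes, Plin2, the coat of lipid droplets, read 1410.1 in MEF3 and 20238 on day 12 (3.84), with 676 to 7975 in the other MEF (2.74), and Cebpb, an early adipogenic factor, 1439.6 in MEF3 and 10177 on day 12 (2.82 and 1.26). Plin1 and Adipoq, of mature fat cells, were lower than MEF3 at 993 in MEF3 and 119 on day 12 and 212 in MEF3 and 47.3 on day 12. The other MEF read Plin1 at 91.2 to 114, near day 12 (-0.19 with the other reference). The 4 adipocyte markers summed to 1229 in MEF3 and 188 on day 12. Scd2, a desaturase, and Slc27a1, a fatty acid transporter, were within 2-fold at 33324 in MEF3 and 35775 on day 12 and at 14157 in MEF3 and 10351 on day 12 (other reference 1.49). Of 23 genes measured, 4 were higher and 5 lower, and with the other reference 6 of 16 were higher and 2 lower (median -0.20).

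Macrophage genes were mostly lower, against MEF3 and with the other reference. C1qa, C1qb and C1qc, the chains of complement C1q made by macrophages, read 884 in MEF3 and 56.8 on day 12, 1074 in MEF3 and under 16 on day 12 and 2219 in MEF3 and 85.2 on day 12. They differed by -3.96, -6.07 and -4.70. MEF2 read them at 3749, 1943 and 2159.9. Fcer1g, an Fc receptor chain, read 4296 in MEF3 and 448 on day 12 (-3.26 and -2.03). Cd14 and Mpeg1, a receptor for bacterial lipid and a pore protein, were within 2-fold at 681 in MEF3 and 519 on day 12 (other reference -4.27) and at 72.1 in MEF3 and 97.1 on day 12. Of 18 genes measured, 1 was higher and 13 lower (median -1.95), and with the other reference 0 of 10 were higher and 8 lower (median -4.01). The 6 macrophage markers summed to 4948 in MEF3 and 758 on day 12, with 5 of 6 lower and 1 under 16 on day 12. The same sum was 716 on day 20, 2232 on day 32, 2239 in the CiPSC control line and 4304 in ESC5. A high sum was thus not particular to MEF3.

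Chemokine and cytokine genes were lower in 12 of 23 cases and higher in 6 (median -1.03), and with the other reference 4 of 17 were higher and 7 lower (median -0.59). Cxcl12, a chemokine of fibroblasts, read 1426 in MEF3 and 126 on day 12 (-3.50), with 9072 to 46497 in the other MEF (-6.30). Il33, an alarmin, read 32.9 in MEF3 and 1249 on day 12, and Ccl7 and Ccl20, chemokines for monocytes and lymphocytes, 644 in MEF3 and 6853 on day 12 and 168 in MEF3 and under 16 on day 12. Ccl7 turned with the other reference (-1.91), and WT MEF and MEF2 read it at 3217 and 3928. Ccl2 and Cxcl1 were within 2-fold at 1869 in MEF3 and 1714 on day 12 (other reference -5.16) and at 734 in MEF3 and 600 on day 12 (other reference -1.07).

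Interferon genes had 7 of 26 higher and 8 lower, shares near the 23.4% and 25.1% of all genes. With the other reference 2 of 22 were higher and 12 lower (median -1.16), against 20.47% and 19.06% of all genes. Ifit1, which binds foreign RNA, read 179.8 in MEF3 and 1937 on day 12, and Gbp3, a guanylate binding protein, 402 in MEF3 and 62.4 on day 12 (-2.69 and -2.53). Tap1 and Isg15, a peptide transporter and a ubiquitin-like protein, turned from 2.41 to -1.25 and from 2.40 to -10.21. Psmb8 and Ifi35 were within 2-fold at 299 in MEF3 and 588 on day 12 and at 395 in MEF3 and 403 on day 12 (other reference -1.67). The part of the macrophage markers in these lists was not tested.

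Most markers of pluripotency read far below ESC5 on day 12. The 7 pluripotent markers measured summed to 1242 in MEF3, 645 on day 12, 2766 on day 32 and 105391 in ESC5. Nanog read 762 in MEF3 and 156 on day 12 against 1468 in ESC5, Zfp42 (Rex1) 126 in MEF3 and 30.7 on day 12 against 6036, and Utf1 912 in MEF3 and 335 on day 12 against 8987. Each was lower on day 12 than in MEF3 but not with the other reference (0.77, 0.28 and 0.23). Pou5f1 (Oct4) read 61 in MEF3 and 220.2 on day 12 (1.85) and 389 on day 32, and ESC5 itself read it at 140.5. Sox2 read 28.2 in MEF3 and 73.2 on day 12, and with 34.2 in ESC5 its probe showed no stem cell level in set 5. Sall4 was under 16 in all samples of set 5. Because ESC5 reads several of these probes low, the count with the other reference, 15 of 26 higher and 2 lower, is not read for this list. Upp1, uridine phosphorylase, read 139 in MEF3 and 1919 on day 12 (3.79), with 27.8 to 61.8 in the other MEF, though a second probe of it differed by -0.83. Tbx3, a factor shared with mesenchyme, read 2646 in MEF3 and 9723 on day 12 (1.88). Klf4 read 588 in MEF3 and 1431 on day 12 (1.28 and -1.10) and 5643 on day 32, and Klf5, its relative, was within 2-fold at 2636 in MEF3 and 3572 on day 12 (other reference 1.79). Myc, which promotes growth, read 377 in MEF3 and 1674 on day 12 (2.15 and -3.12), with 398 and 1844 in WT MEF and MEF2. Dppa2, of early embryos, was at under 16 in MEF3 and 97.7 on day 12, and Nr0b1, a repressor of the ESC network, was within 2-fold at 352 in MEF3 and 265 on day 12 (other reference 4.77). Of 32 genes measured, 8 were higher and 8 lower (median -0.32), shares near the 23.4% and 25.1% of all genes.

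Genes of extraembryonic endoderm, a state through which chemical reprogramming is known to pass, were mixed on day 12. Gata4, an endoderm factor, read 2264 in MEF3 and 609 on day 12 (-1.89 and 0.53), then 2769 on day 20 and 7183 on day 32. Sox17, a further factor, read 241 in MEF3 and 309 on day 12 (0.36). Sox7 read under 16 in MEF3 and 300.3 on day 12 (4.23), Srgn, the granule proteoglycan serglycin, 68.2 in MEF3 and 3030 on day 12 (5.47 and 2.30), and Rbp4, a retinol carrier, 19 in MEF3 and 469 on day 12 (other reference 0.67). Col4a1, of basement membranes, was within 2-fold at 13794 in MEF3 and 10999.8 on day 12. Srgn and Rbp4 were far higher later, with Srgn at 6895 on day 20 and 22592 on day 32 and Rbp4 at 2129 on day 20 and 9012 on day 32. Of 29 genes measured, 11 were higher and 5 lower, and with the other reference 4 of 21 were higher and 4 lower (median 0.03). The 7 endoderm markers summed to 4280 in MEF3, 3636 on day 12 and 23724 on day 32.

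Epithelial genes showed no common direction against MEF3, with 8 of 28 higher and 6 lower, against 23.4% and 25.1% of all genes. The other reference gave 9 of 20 higher and 1 lower (median 0.48), against 20.47% and 19.06% of all genes. Cdh1, E-cadherin, was under 16 in both samples, and Epcam read 44.2 in MEF3 and 120.2 on day 12 (1.44) and 1087 on day 32. Cldn6 and Cldn3, claudins of tight junctions, read 354 in MEF3 and 2828 on day 12 and 574 in MEF3 and 1971 on day 12 (9.50 and 4.58 with the other reference), and Cdh3, P-cadherin, 7593 in MEF3 and 362 on day 12 (-4.39 and -3.57). Rab25 and Krt20 were lower, at 1074 in MEF3 and 206 on day 12 (other reference 0.12) and 360.4 in MEF3 and 47.3 on day 12 (other reference -0.13), and Dsp and Spint2 within 2-fold, at 2018 in MEF3 and 1672 on day 12 and at 666 in MEF3 and 954 on day 12.

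Of germline genes, 6 of 23 were higher and 7 lower, against 23.4% and 25.1% of all genes. The other reference gave 4 of 17 higher and 4 lower (median -0.02), against 20.47% and 19.06% of all genes. Prdm1, a repressor of the somatic programme in germ cells, read 29 in MEF3 and 157 on day 12 (other reference 0.40). Rhox5, a homeobox gene silenced by methylation in most somatic cells, read 79.2 in MEF3 and 402 on day 12 (2.34 and 1.77) and climbed to 1174 on day 20 and 17418 on day 32. Tdrd1 and Tdrd7, tudor proteins of germ granules, were higher than MEF3 by 2.38 and 1.73 (0.54 for Tdrd7 with the other reference), and Brdt and Piwil2, of spermatogenesis, within 2-fold at 71 in MEF3 and 118 on day 12 and at 83.4 in MEF3 and 92.2 on day 12.

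Of primed and epiblast genes, 4 of 17 were higher and 6 lower, against 23.4% and 25.1% of all genes. The other reference gave 5 of 12 higher and 3 lower (median 0.37), against 20.47% and 19.06% of all genes. Pou3f1, the factor Oct6, read 54 in MEF3 and 389 on day 12 (2.85 and 3.89), and Dnmt3a, a methyltransferase, was higher by 2.58 but not with the other reference (-1.18). Eomes and Mixl1, of the primitive streak, went opposite ways, at under 16 in MEF3 and 102 on day 12 and at 159 in MEF3 and 25.2 on day 12 (other reference -0.06). Gsc and Fgf5 were within 2-fold at 450.1 in MEF3 and 297 on day 12 (other reference -1.41) and at 88.6 in MEF3 and 94.5 on day 12.

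Some genes of neurons were higher on day 12 under both references. Nefm and Nefl, the neurofilament chains, read 2472 in MEF3 and 33619 on day 12 and 72.9 in MEF3 and 2585 on day 12, and the other MEF read them at 86.5 to 387 and at 17.6 to 145. Both increased later, Nefm to 42519 on day 20 and 62899.6 on day 32 and Nefl to 5869.9 on day 20 and 7055 on day 32. The differences were 3.77 and 5.15, and 8.36 and 6.11 with the other reference. Nrcam, a neuronal adhesion protein, read 67.1 in MEF3 and 1754 on day 12 (4.71 and 4.59, though a second probe was lower at -2.03 at dim readings), Stmn3, a stathmin, 16.3 in MEF3 and 528 on day 12 (5.01 and 3.59), and Uchl1, a deubiquitinase of neurons and germ cells, 216 in MEF3 and 5106 on day 12 (4.56 and 2.73). Syn1 and Snap25, proteins of synaptic vesicle release, were higher by 3.85 and 1.35 (4.01 and 4.10 with the other reference), though a second probe of Syn1 differed by 0.58. Stmn2 and Dcx, of young neurons, were lower than MEF3, at 742 in MEF3 and 190 on day 12 and 801 in MEF3 and 228 on day 12, as were the oligodendrocyte factors Olig1 and Olig2 (-2.00 and -1.96). With the other reference none of these was lower, at 3.07, 0.80, 0.28 and 0.79. Ngfr and Sox10, of neural crest, were within 2-fold at 7251 in MEF3 and 7687 on day 12 (other reference 1.82) and at 3644 in MEF3 and 2734 on day 12 (other reference 2.93). In all, of 32 genes measured, 12 were higher and 8 lower, against 23.4% and 25.1% of all genes. The other reference gave 16 of 27 higher and 2 lower (median 1.64), against 20.47% and 19.06% of all genes.

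Endothelial genes had 3 of 16 higher and 6 lower, against 23.4% and 25.1% of all genes. Flt4, a VEGF receptor of lymphatic vessels, and Robo4, a vessel guidance receptor, read 869 in MEF3 and 3862 on day 12 and 103 in MEF3 and 1353 on day 12, with no value above 226 for either in the other MEF. Vwf, the von Willebrand factor, read under 16 in MEF3 and 151 on day 12 (3.23 and 3.70), and Esam, a junction protein, 840.1 in MEF3 and 206 on day 12 (-2.03 and 1.27). Cd34 and Egfl7 were within 2-fold at 4877 in MEF3 and 9272 on day 12 (other reference 2.83) and at 2872 in MEF3 and 1946 on day 12.

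Muscle genes had 5 of 23 higher and 10 lower, against 23.4% and 25.1% of all genes. Ckm, the muscle creatine kinase, was higher at 20.6 in MEF3 and 84.2 on day 12, and Hand2, a heart and limb factor, at 49.5 in MEF3 and 192 on day 12. Myl1 and Tnni1, of muscle fibres, were within 2-fold at 6864 in MEF3 and 3982 on day 12 (other reference -3.55) and at 4935 in MEF3 and 2608 on day 12 (other reference 2.46), and other factors were lower than MEF3, with Hand1 at 4325 in MEF3 and 1161 on day 12 and Mef2c at 769 in MEF3 and 199 on day 12. With the other reference these stood at 2.03 and 0.14, and a second probe of Mef2c was higher than MEF3 by 2.51. The other reference gave 7 of 14 endothelial and 9 of 16 muscle genes higher, and 1 lower in each, against 20.47% and 19.06% of all genes.

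The ligand genes Bmp7, Bmp6 and Inhbb, of the BMP and activin families, were higher under both references. Bmp7 read 72.9 in MEF3 and 2272 on day 12 (4.96), with 25.2 and 82.1 in MEF1 and MEF2 (5.22), and Inhbb, an activin chain, 844 in MEF3 and 16348 on day 12 (4.28 and 5.91). Bmp6 was higher by 2.43 and 3.05. Id2, a target, read 797 in MEF3 and 9097 on day 12 (3.51 and 1.39). The receptor Bmpr1a read 40.4 in MEF3 and 270.4 on day 12, with 3334 in MEF2 (-0.96), and Fst, an activin trap, was within 2-fold at 2485 in MEF3 and 3314 on day 12. Of 24 genes measured, 12 were higher and 5 lower (median 0.91), and with the other reference 7 of 23 were higher and 3 lower (median 0.42).

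Of growth factor genes of the IGF, FGF and PDGF families, 6 of 27 were higher and 7 lower, shares near the 23.4% and 25.1% of all genes, and with the other reference 0 of 21 were higher and 7 lower (median -0.54). Igfbp6 and Igfbp5, which bind IGF, read 87.5 in MEF3 and 670.5 on day 12 and 6349 in MEF3 and 37203 on day 12, but stood at -2.57 and 0.35 with the other reference. Fgf7, a growth factor for epithelia, read 25 in MEF3 and 176 on day 12. Igf2r, which clears IGF2, read 3094 in MEF3 and 17679 on day 12, but stood at -0.48 with the other reference. Igf2 itself and Igfbp4 were within 2-fold at 62511 in MEF3 and 47819 on day 12 (other reference -1.86) and at 24566 in MEF3 and 34152 on day 12.

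Of imprinted genes, 5 of 25 were higher and 10 lower, against 23.4% and 25.1% of all genes. The other reference gave 2 of 22 higher and 8 lower (median -0.75), against 20.47% and 19.06% of all genes. Dlk1, a Notch-like ligand, read 6776 in MEF3 and 753 on day 12 (-3.17 and -2.43), Peg12 2406 in MEF3 and 157 on day 12 (-3.94 and -0.60, with a second probe at 2.96), and Peg10, derived from a retrotransposon, under 16 in MEF3 and 790.3 on day 12. H19, a noncoding RNA beside Igf2, was within 2-fold at 43637 in MEF3 and 24934 on day 12.

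The 10 housekeeping genes had 4 higher and 1 lower, with a median of 0.72 against MEF3 and 0.00 with the other reference. Sdha, Gusb and Rplp0 were higher than MEF3 by 2.19, 2.17 and 1.29, and Polr2a was lower at -1.61. With the other reference these stood at -0.01, -1.12, 0.06 and 1.23. Of the rest, Actb and Pgk1 were within 2-fold at 18752 in MEF3 and 27886 on day 12 and at 11038 in MEF3 and 13826 on day 12.

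The 12 largest rises were Dkk1, Chia1, Rln3, Cux1, Tctn2, Zfp763, Apold1, Lum, Tex55, Retnla, Cntrl and Ikbkg, at differences from 7.52 to 9.59. In 6 of them (Dkk1, Chia1, Rln3, Zfp763, Cntrl and Ikbkg) MEF3 read under 16, so that the size of the difference depends on the floor. Dkk1, Rln3, Zfp763 and Cntrl are among the 120 genes that MEF3 alone missed. Every other sample of set 5, ESC5 included, read Rln3 at 332 or more, Zfp763 at 1752 or more and Cntrl at 900 or more. Cux1, a homeobox factor, read 37.1 in MEF3 and 13994 on day 12, with 56 in WT MEF and 231 in MEF2, and Apold1, an early response gene of endothelium, 48.1 in MEF3 and 12558 on day 12, with 16.8 in WT MEF and 99.5 in MEF2. These were high under both references (7.59 and 9.70). Chia1, a chitinase, and Retnla, a resistin-like protein, read 8122 and 3521 on day 12 and 46.9 or less in the pluripotent samples of set 5. Among genes that the other MEF read below the median of their own sets, the largest rises also included Adssl1, Mok, Fbxo2 and Rab39. Their differences were 7.02, 6.81, 6.52 and 6.28, and 7.84, 10.23, 4.17 and 8.17 with the other reference. These genes were chosen by MEF readings that also enter the other reference, so the latter values lend no separate support. WT MEF read Adssl1 at only -0.20 from the median of its set. Where the other MEF were the highest samples of their sets, the largest rises were Mgst1, 5730409E04Rik, Prmt2, Twist1, Nr0b2 and Tmem86a. Prmt2, an arginine methyltransferase, read 40.4 in MEF3 and 3002 on day 12 (6.21 and 2.38), 5730409E04Rik 137 in MEF3 and 15054 on day 12 (6.78 and 0.70) and Tmem86a 73.9 in MEF3 and 4064 on day 12 (5.78 and 0.14). Nr0b2, the corepressor SHP, read 233 in MEF3 and 13077 on day 12, and 63.4 in MEF1 and 72.8 in MEF2, above the median of each of those sets.

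Of the 12 largest falls, 11 (Farsb, Psmb3, Cenpb, Cyb5r3, Prmt7, Cavin2, Klhl20, Ro60, Pdgfrb, Tti1 and Slc25a14) were under 16 on day 12 and in every further sample of set 5 but MEF3. Where WT MEF and MEF2 were measured, they read these genes at 592 or more, as in Psmb3, a proteasome subunit (6926 in WT MEF and 11759 in MEF2), and Farsb, a tRNA synthetase chain (3888 in WT MEF and 8526 in MEF2). The remaining one was Tnmd, tenomodulin of tendon, which read 13238 in MEF3 and 50.6 on day 12 (-8.03), with 5860.4 in WT MEF and 20868 in MEF2 and with 66.8 or less in the pluripotent samples of set 5 (-8.59). Sco2, Rtl3, BC034090, Atp13a3, Smc5 and Atad2 were further genes that MEF3 alone read, at 2588, 2519, 1735, 1182, 1070.1 and 755, and Zfp414 was read in MEF3 (3129.8) and on day 32 (2066) alone. Leaving out the 190 genes that MEF3 alone read or missed, 4342 genes were higher and 4721 lower.

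Differences from MEF3 on day 12 were found again on later days. Of the 2420 genes higher by 4-fold or more on day 12, 2409 were higher than MEF3 by 2-fold or more on day 20, 2355 on day 32 and 1739 in the CiPSC control line. Of the 1203 lower by 4-fold or more, 1177, 1116 and 990 were lower. These comparisons share MEF3, so the counts describe how the same genes were read against 1 sample. Day 12 was the highest of the 6 samples for 1084 of the genes called higher and the lowest for 1004 of those called lower. The ranks of the other MEF within their own sets were set beside these calls. Of the 3059 genes that they read as the highest sample of their sets, day 12 was higher than MEF3 at 938 and lower at 687. Of the 3053 that they read as the lowest, it was higher at 843 and lower at 766.

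**Figure D4:**
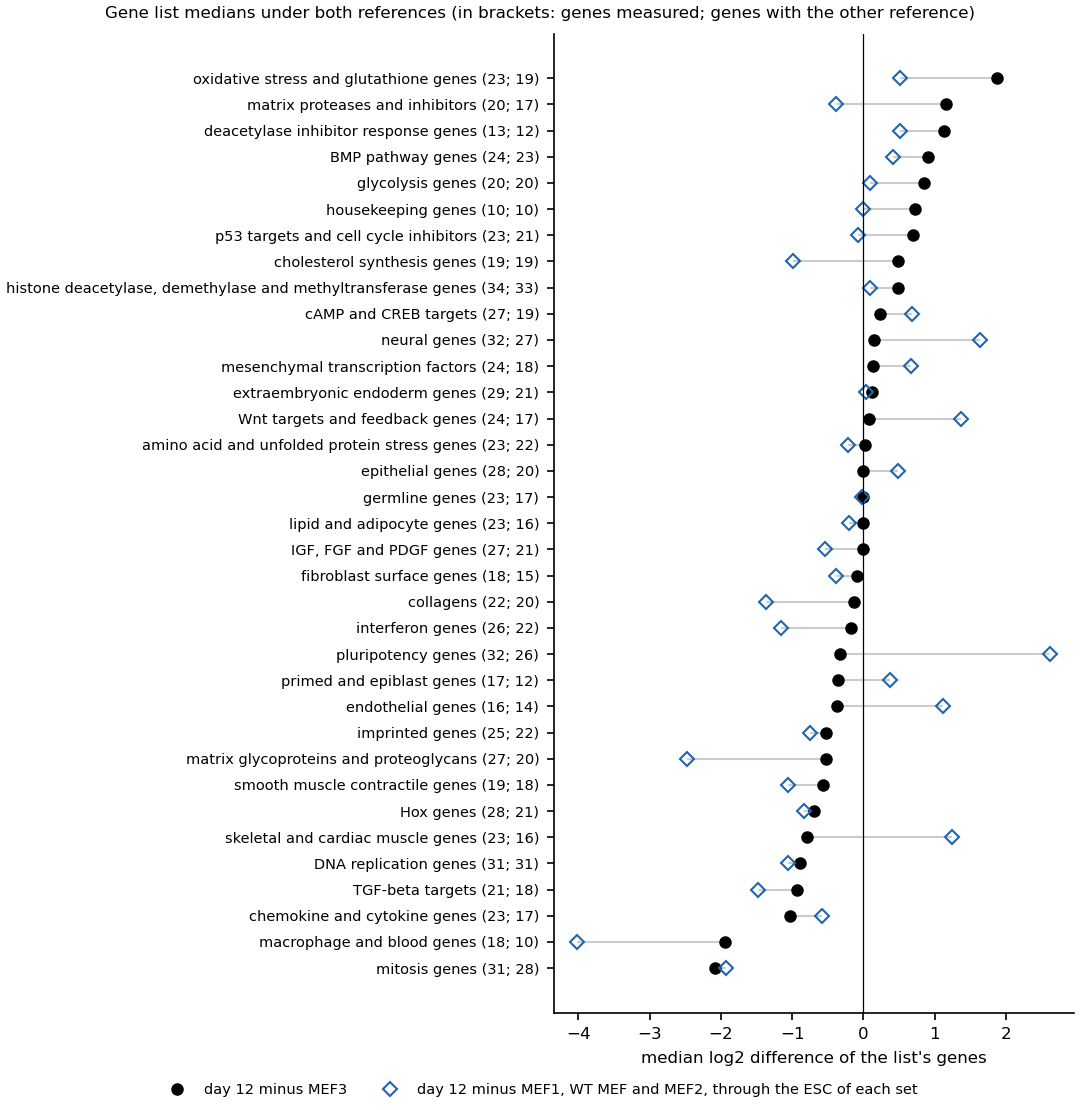
Median log2 difference of each of the 35 gene lists, against MEF3 (black) and against the other MEF (open blue), with the number of genes under each reference in brackets. The mitosis list is low under both, at -2.08 and -1.93, and cholesterol synthesis lies on opposite sides of 0, at 0.48 and -0.99.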

How the data were processed

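Total RNA of each sample was labelled with Cy5 and hybridised to Mouse Whole Genome OneArray v2 arrays (Phalanx), per the labels. The deposited value table holds the authors' intensity per probe on a linear scale, already normalized by the authors within each of 5 sets, per the design text, which also gives 2 replicates for each sample of set 5, deposited as 1 column. Which scanner software, background correction or normalization method was used is not given in the sources used here. All 30 columns were mapped by title, and 0 columns were left unmapped. For arrays, their number limits the precision: with 1 value a side there is no error and no test.

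Of 26423 probes, 26397 had values in set 5. The platform annotation gave 21876 probes 1 gene, 4547 none and 0 several, and symbols were updated through RefSeq for 21825. Where a gene had several probes, the one measured in most samples and then with the highest mean was used; of 2420 such genes, 242 had probes past 2-fold in opposite directions. Values under 16 were set to 16 before log2. Differences of at least 1 (2-fold) and 2 (4-fold) were counted. The other reference needed at least 2 of the 3 other MEF, and the median SD among these MEF was 0.46. Counting was tested on simulated data. Python 3.11.15, pandas 2.3.3 and numpy 2.4.6 were used. Promoters and names are from RefSeq (GRCm38.p6).

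Alternatives were floors of 32 and 64 and none, quantile normalization, median centring, leaving out the lowest 25% of genes, the mean of probes, and the other reference with each of its MEF left out. Genes are named by this rule: the 12 largest rises and falls; the 8 largest rises among genes that the other MEF all read below, and falls among genes they read above, the median of the other samples of their sets; the 6 largest rises where they were the highest, and falls where they were the lowest, of their sets; of each of the 35 lists up to 4 members past 2-fold and up to 2 that were not; and a fixed set from Thy1 to Cdkn2a. Further list members were named after their values were seen, mostly those past 2-fold under both references. The members and lists were chosen with earlier results of these data known.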

Additional observations from a re-analysis of the deposited data

How the results depend on the processing

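Floors of 32 and 64, no floor, quantile normalization, leaving out the lowest 25% of genes, the mean of probes and leaving out the genes that MEF3 alone read or missed kept all 4 counts of called genes within 1.5 times; the last of these was chosen after seeing the data. With differences centred on the median, genes lower at day 12 by 4-fold or more numbered 800. With the other reference, which fewer genes have, genes higher at day 12 by 2-fold or more numbered 2838, and 2719, 2475 and 2255 without MEF1, WT MEF or MEF2. There, genes lower at day 12 by 2-fold or more numbered 2642, and 2485, 2042 and 1964 without MEF1, WT MEF or MEF2. There, genes higher at day 12 by 4-fold or more numbered 995, and 962, 830 and 757 without MEF1, WT MEF or MEF2. There, genes lower at day 12 by 4-fold or more numbered 950, and 885, 676 and 640 without MEF1, WT MEF or MEF2. The median of matrix proteases and inhibitors turned to -0.38 there, and was -0.18, -0.15 and 0.11 without MEF1, WT MEF or MEF2. The median of chemokine and cytokine genes was -0.50, 0.69 and 0.67 without these. Of the genes named, these changed sign with the other reference: Atad2 (1.32), Atp13a3 (1.04), Bmpr1a (-0.96), Cald1 (-0.85), Ccl7 (-1.91), Cdkn2b (-0.51), Dcn (-3.19), Dcx (0.80), Dkk3 (-3.05), Dnmt3a (-1.18), Ebp (-0.26), Esam (1.27), Ezh2 (-2.48), Farsb (1.36), Fdft1 (-1.51), Gata4 (0.53), Glb1 (-0.45), Gusb (-1.12), H2bc4 (-0.24), Hand1 (2.03), Htra1 (-0.16), Igf2r (-0.48), Igfbp6 (-2.57), Isg15 (-10.21), Klf4 (-1.10), Mef2c (0.14), Myc (-3.12), Nanog (0.77), Nr4a1 (-1.45), Nr4a2 (-0.084), Olig1 (0.28), Olig2 (0.79), Pde4b (1.31), Pfkm (-0.012), Pmvk (-0.82), Polr2a (1.23), Postn (-5.48), Psmb3 (0.79), Rab25 (0.12), Sdha (-0.014), Sfrp1 (-1.41), Slc25a14 (0.17), Smc5 (1.19), Stmn2 (3.07), Tap1 (-1.25), Tgfbi (-1.32), Thy1 (-0.76), Tpm4 (-0.75), Ube2c (1.19), Utf1 (0.23), Zfp414 (0.75) and Zfp42 (0.28). Of these genes, Atad2, Atp13a3, Farsb, Psmb3, Slc25a14, Smc5 and Zfp414 were under 16 both on day 12 and in ESC5. ESC5 read each of them 8-fold or more below every other ESC measured. Their values with the other reference therefore rest on the MEF and ESC of the other sets alone. With the mean of probes Mef2c turned to 0.28. The cause of these changes was not tested. No paired analysis was possible because each side has 1 sample. Values near 16 lie at the floor, and a fold against them depends on it.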
